A study of Homo sapiens with 12 samples.

Results

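Kinesins are the motor proteins that walk along microtubules, or take them apart, and human cells use them both to divide and to move cargo. The kinesin superfamily genes were taken here as the rows of the deposited tables whose symbol is KIF with a number and at most 1 letter of A, B or C, or KIFC1, KIFC2 or KIFC3. This rule found 40 genes of 20652 rows in either table: 39 in the table of the selinexor experiment and 40 in the table of the knockdown experiment, with KIF19 in the second only. By role they were 13 mitotic kinesins, 11 axonal transport kinesins, 6 other membrane transport kinesins, 6 ciliary kinesins and 4 remaining kinesins. CENPE, the centromere kinesin whose symbol does not start with KIF, was left out of the members and is described with their partners. KIF2B and KIF25 were not analysed here.

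The libraries came from IMR5, an established MYCN-amplified line of human neuroblastoma, a childhood tumour of the sympathetic nervous system, in 4 groups of 3. Selinexor cells received 100 nM of selinexor, a small molecule that blocks the nuclear export receptor XPO1, for 24 h, and were compared with DMSO cells, whose time in culture the labels do not give. XPO1 siRNA cells were nucleofected with 1 siRNA against XPO1 (number 10) and control siRNA cells with a negative control siRNA, both taken after 72 h. All libraries come from 1 cell line, and no label states that replicates were separate cultures, so each p-value reflects the spread among these libraries, possibly technical. The unit is the normalized read count of the authors, called counts below, with separate normalization in each table. Depth was estimated at 26.8 to 33.8 M reads per selinexor library, 39.5 to 40.9 M per DMSO library, 33.5 to 55.8 M per XPO1 siRNA library and 40.6 to 54.0 M per control siRNA library, and 1 normalized count stands for 0.833 to 1.37 reads. Fold changes use log2(value + 1), which understates changes of low genes, with the standard error (SE) from limma, and a gene was called where limma's adjusted p was under 0.05 over all genes tested.

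A dividing cell builds its spindle with kinesins that push poles apart, slide and bundle microtubules, carry chromosomes to the middle of the cell, take microtubule ends apart, and finally assemble the midzone at which the cell is cut. In neurons other kinesins carry mitochondria, synaptic vesicle precursors, neurofilaments and mRNA particles along the axon toward its end. Messenger RNAs of the mitotic kinesins are known to accumulate late in the cell cycle, so that they mark cycling cells, whereas several transport kinesins, among them KIF1A, KIF5A, KIF5C and KIF3C, are enriched in nervous tissue. Both sets were read in every library here: the mitotic markers KIF11 and KIF20A and the neuronal markers KIF1A and KIF5C had between 1321 (KIF11, selinexor replicate 1) and 17206 counts (KIF5C, XPO1 siRNA replicate 1).

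As a check of the labels, XPO1 had 4259.9, 4377 and 4397 counts in the XPO1 siRNA libraries, against 18568, 18950.1 and 18908 in the control siRNA libraries, a log2 fold change of -2.11 with a limma adjusted p of 2.91e-14. In the selinexor libraries, where the protein and not its mRNA is the target, XPO1 had 15544, 22513 and 21165 counts, against 17886, 18899 and 18356 in the DMSO libraries (log2 fold change 0.09, adjusted p 0.623). Selinexor replicate 1 stood apart from its group: it correlated with the other selinexor libraries at 0.974 and 0.977 over the log2 values of all tested genes, while those correlated with each other at 0.991. Summed counts of 16 neuroblastoma markers, 15 of them in the selinexor table, ranged over 113284 to 124929 with selinexor and 92590 to 96294 with DMSO, and over 129569 to 137848 with XPO1 siRNA and 104161 to 106660 with control siRNA. Of 9 leukocyte and endothelial markers 4 were in each table, with sums of 84.0 to 124 counts with selinexor, 55.0 to 56.9 with DMSO, 103 to 112 with XPO1 siRNA and 51.0 to 59.6 with control siRNA. Mesenchymal markers summed to 3270 to 3799 counts with selinexor and 5210 to 5431 with DMSO, and to 3834 to 3993 with XPO1 siRNA and 5535 to 5790 with control siRNA. Schwann and glial markers summed to 1971 to 2192 counts with selinexor and 3072 to 3277 with DMSO, and to 3043 to 3205 with XPO1 siRNA and 3391 to 3623 with control siRNA. The part of these markers in the kinesin results was not tested.

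Over the whole superfamily, selinexor was accompanied by 19 lower and 5 higher genes of 39, or 48.7% lower and 12.8% higher. Among all 18128 genes tested there, 26.3% were lower and 22.9% higher, 49.2% in all. With XPO1 siRNA 18 of 40 kinesin genes were lower and 8 higher, or 45% and 20%, where 28.6% of all 17616 genes tested were lower and 25.9% higher, 54.5% in all. The median log2 fold change of the kinesins was -0.28 with selinexor and -0.13 with XPO1 siRNA, against -0.01 and 0.00 for all genes tested. The share of higher genes among all called genes depends on scaling: it was 46.5% with selinexor and 47.5% with XPO1 siRNA on the authors' values, and 52.7% and 62.4% with libraries set to equal totals. Leaving RN7SL1 and RN7SL2 out of those totals, a setting chosen after seeing the data, gave 60.9% and 59.7% and moved the median of all genes with selinexor by 0.15 (log2). RN7SL1 and RN7SL2 made up 12.6% to 16.0% of the summed counts with selinexor and 9.4% to 9.72% with DMSO, and 10.8% to 12.4% with XPO1 siRNA and 12.6% to 13.1% with control siRNA. Mitochondrial genes made up 0.272% to 0.543% with selinexor and 0.212% to 0.267% with DMSO, and 0.279% to 0.289% with XPO1 siRNA and 0.178% to 0.184% with control siRNA. The part of these shares in the kinesin results was not tested.

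**Figure D1:**
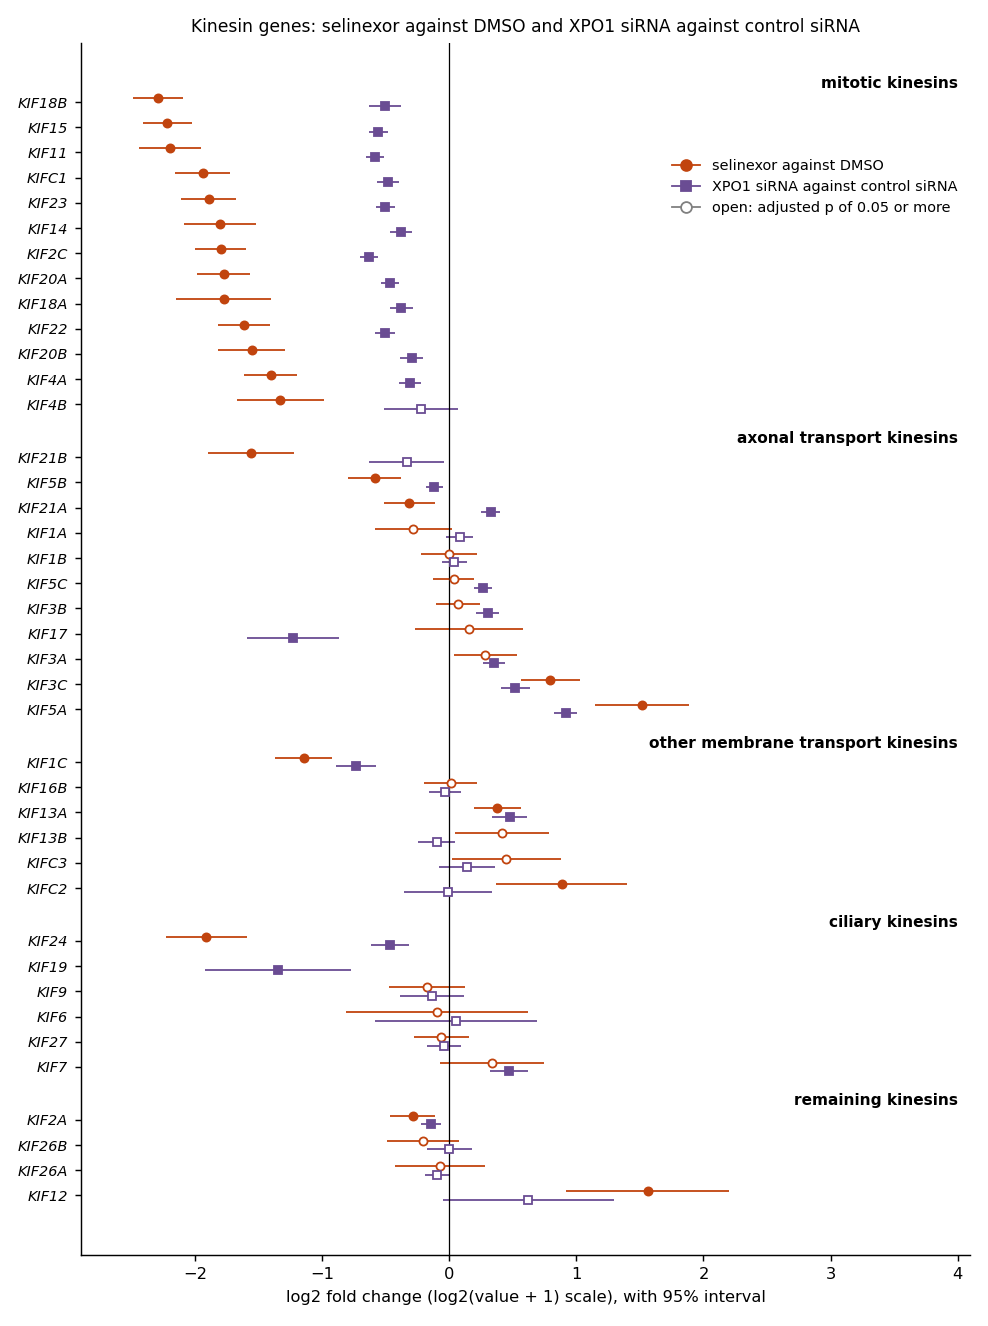
Log2 fold change of each kinesin gene (x axis, log2(value + 1) scale, bars are 95% intervals) for selinexor against DMSO (circles) and XPO1 siRNA against control siRNA (squares), with genes grouped by role; open symbols did not pass the adjusted p of 0.05. All 13 mitotic kinesins lie left of 0 with selinexor, between -2.29 and -1.33, while the axonal transport kinesins spread on both sides, KIF5A being the highest of them in both comparisons.

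The first comparison asked how kinesin genes differ between cells with the XPO1 inhibitor and with its solvent. All 13 mitotic kinesins were lower with selinexor, where 26.3% of all tested genes were. Their median log2 fold change was -1.80, with single values between -2.29 (KIF18B) and -1.33 (KIF4B). Limma adjusted p-values lay between 7.1e-07 and 1.97e-04. In each of the 13 every selinexor library was below every DMSO library, which 32.9% of all tested genes also showed. The list was chosen with earlier results known. KIF2A, a depolymerase of spindle poles, is outside it and fell by less, with a log2 fold change of -0.29. Fewer cells in mitosis and less of each mRNA per cell cannot be told apart in bulk RNA.

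The motors that set up the 2 spindle poles fell most, with KIF18B. KIF11, the tetrameric kinesin-5 that slides antiparallel microtubules and pushes the poles apart (hg19, chr10:94353043-94415151, plus strand), had 1321, 1652 and 1680.3 counts with selinexor, against 6905, 7294 and 7034 with DMSO. KIF15, which works beside KIF11 in keeping the spindle bipolar, had 768, 816 and 859 counts with selinexor and 3577, 3964 and 3826 with DMSO. KIFC1, a minus-end motor that focuses poles and clusters extra centrosomes, had 1160.5, 1063 and 959 counts with selinexor and 3897, 4274 and 4018 with DMSO. Their log2 fold changes were -2.20 (0.105 SE), -2.22 (0.0849 SE) and -1.94 (0.0943 SE).

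Motors that act on chromosomes and microtubule ends spread more widely, from KIF18B to KIF4B. KIF18B, a plus-end motor that trims astral microtubules, had 756, 682 and 726 counts with selinexor and 3292, 3643 and 3668 with DMSO, a log2 fold change of -2.29 (0.0864 SE). KIF18A, which damps the movements of chromosomes at the middle of the spindle, had 410.4, 611 and 649 counts with selinexor and 1834, 1891 and 1888 with DMSO. KIF2C (MCAK), the depolymerase that removes wrong attachments at centromeres, had 1195, 1129.8 and 1023 counts with selinexor and 3740.1, 4021 and 3863 with DMSO. The log2 fold changes of KIF18A and KIF2C were -1.77 and -1.80; the selinexor values of KIF18A spread more, its lowest being replicate 1. The chromosome arm motor KIF22 (Kid) had 1646, 1653 and 1423 counts with selinexor and 4626, 5065 and 4775 with DMSO, a log2 fold change of -1.62. KIF4A, which condenses chromosomes and shortens midzone microtubules, had 1105, 963 and 944 counts with selinexor and 2542, 2711 and 2707 with DMSO. KIF4B had 61.6, 57.6 and 76.9 counts with selinexor and 162, 169.6 and 161 with DMSO. KIF4B is a near-identical copy of KIF4A, so its few reads may be shared with it and both values are uncertain; their log2 fold changes were -1.40 and -1.33, the smallest falls of the 13.

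The motors of the midzone and of cytokinesis fell by like amounts. KIF23 (MKLP1), which forms centralspindlin together with RACGAP1, had 1134, 1376 and 1328 counts with selinexor and 4577, 4892 and 4733 with DMSO. KIF20A (MKLP2), which brings the chromosomal passenger complex to the midzone, had 1676, 2032 and 1892 counts with selinexor and 6166, 6566 and 6396 with DMSO. KIF14, which binds PRC1 and citron kinase at the midbody, had 1442, 2041 and 1806 counts with selinexor and 5940.0, 6176 and 6145 with DMSO. KIF20B (MPP1), needed to complete cytokinesis, had 1241, 1673 and 1589.8 counts with selinexor and 4338, 4346 and 4439 with DMSO. Log2 fold changes of these midzone motors were -1.89, -1.78, -1.80 and -1.55 in the order given. KIF11, KIF14, KIF15, KIF18A, KIF20A, KIF20B and KIF23 were lowest in selinexor replicate 1, whereas KIFC1, KIF2C, KIF4A and KIF18B were highest in it; none of the 13 lost its call when any library was left out.

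**Figure D2:**
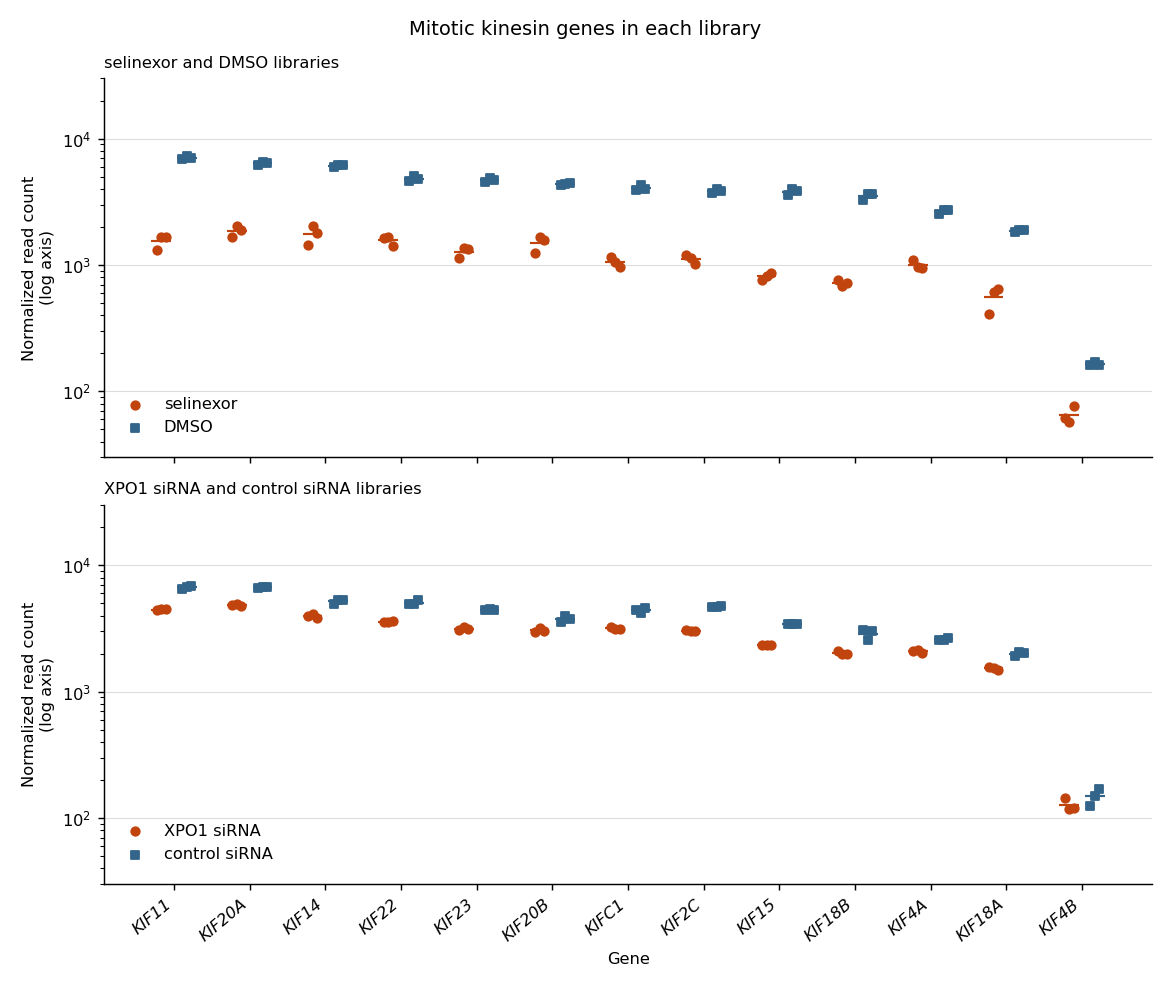
Normalized read counts (y axis, log scale) of the 13 mitotic kinesin genes in each library, selinexor and DMSO above, XPO1 siRNA and control siRNA below; points are libraries and lines are means. No selinexor point reaches a DMSO point in any gene, and with siRNA the groups overlap in KIF4B only.

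The second comparison asked the same of cells that had lost most XPO1 mRNA. There 12 of 13 mitotic kinesins (92.3%) were lower with XPO1 siRNA, where 28.6% of all tested genes were. The median log2 fold change of the 13 was -0.48, and KIF2A, outside the list, changed by -0.14. In those 12 every XPO1 siRNA library was below every control siRNA library, where 31.2% of all tested genes were. The exception was KIF4B, with 144, 118 and 119 counts with XPO1 siRNA and 125, 151 and 171 with control siRNA (log2 fold change -0.22, adjusted p 0.187), where the groups overlap.

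KIF2C fell most with XPO1 siRNA, to 3086, 3038 and 3018 counts, against 4672, 4687 and 4785 with control siRNA, a log2 fold change of -0.63 (0.0335 SE). KIF11 had 4427, 4486 and 4482 counts with XPO1 siRNA and 6507, 6729.9 and 6826 with control siRNA (-0.58 log2). KIF15 had 2349, 2339 and 2326 counts with XPO1 siRNA and 3430.0, 3452 and 3454 with control siRNA (-0.56 log2). KIF11 and KIF15 thus followed KIF2C in size of fall, and KIF18B and KIFC1 came near the median. KIFC1 had 3251, 3116 and 3131 counts with XPO1 siRNA and 4429.8, 4228 and 4612 with control siRNA (-0.48 log2). KIF18B had 2107, 1979 and 1995 counts with XPO1 siRNA and 3052, 2578 and 3022 with control siRNA (-0.50 log2). The chromosome motors KIF22, KIF18A and KIF4A were lower as well. KIF22 had 3568, 3536 and 3601 counts with XPO1 siRNA and 4931, 4954 and 5313 with control siRNA (-0.50 log2). KIF18A had 1572, 1527 and 1498 counts with XPO1 siRNA and 1919, 2043 and 2008 with control siRNA (-0.38 log2). KIF4A had 2104, 2144 and 2028 counts with XPO1 siRNA and 2569.5, 2546 and 2664 with control siRNA (-0.31 log2).

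Among the midzone motors, KIF23 had 3094, 3224 and 3145 counts with XPO1 siRNA and 4442, 4555 and 4425 with control siRNA, a log2 fold change of -0.50. KIF20A had 4901, 4907 and 4762 counts with XPO1 siRNA and 6615, 6778 and 6774 with control siRNA, a log2 fold change of -0.47. Both changes were close to the median of the list. KIF14 had 3991, 4111 and 3859 counts with XPO1 siRNA and 4930.3, 5295 and 5329 with control siRNA, a log2 fold change of -0.38. KIF20B had 2995, 3168 and 3050.3 counts with XPO1 siRNA and 3591, 3966 and 3757 with control siRNA, a log2 fold change of -0.30. KIF20B thus had the smallest called fall of the 13, and no mitotic kinesin reached a log2 fold change of -1 with XPO1 siRNA.

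The promoters of mitotic kinesins are shown because these genes were lower in both comparisons, with KIF4B called with selinexor only. Many genes that are transcribed late in the cell cycle carry a CHR (cell cycle genes homology region, searched as TTTGAA) near their start, often downstream of CCAAT boxes (searched as CCAAT), and genes of earlier phases often carry E2F sites (searched as TTTCCCGC or TTTGGCGC). Windows of 300 bases, 250 before and 50 after each start, were taken from RefSeq on GRCh38.p14, and 32 of the 40 kinesin genes had at least 1. All motifs were searched on both strands, and no match overlapped another in these genes. The 4 mitotic kinesins with the largest falls with selinexor and a match are printed, and KIF3C, a transport kinesin that rose in both comparisons and has a window without any match, for contrast. Capitals mark the matches: CCAAT (or ATTGG on the other strand), TTTGAA (or TTCAAA), and in KIF15 an E2F match directly followed by TTCAAA.
KIF18B, chr17:44947724-44948023, minus strand: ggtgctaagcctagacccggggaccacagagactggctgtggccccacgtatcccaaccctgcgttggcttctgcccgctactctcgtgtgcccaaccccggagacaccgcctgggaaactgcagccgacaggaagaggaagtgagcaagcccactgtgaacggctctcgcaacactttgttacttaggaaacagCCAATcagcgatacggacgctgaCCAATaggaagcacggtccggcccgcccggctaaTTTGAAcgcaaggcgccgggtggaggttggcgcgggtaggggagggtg
KIF15, chr3:44761544-44761843, plus strand: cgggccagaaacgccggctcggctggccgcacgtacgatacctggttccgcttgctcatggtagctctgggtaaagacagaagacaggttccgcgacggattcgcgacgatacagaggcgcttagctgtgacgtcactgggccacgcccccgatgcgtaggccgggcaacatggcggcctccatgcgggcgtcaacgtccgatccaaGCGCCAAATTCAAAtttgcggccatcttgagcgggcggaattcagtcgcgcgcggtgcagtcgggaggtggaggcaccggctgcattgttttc
KIF11, chr10:92592880-92593179, plus strand: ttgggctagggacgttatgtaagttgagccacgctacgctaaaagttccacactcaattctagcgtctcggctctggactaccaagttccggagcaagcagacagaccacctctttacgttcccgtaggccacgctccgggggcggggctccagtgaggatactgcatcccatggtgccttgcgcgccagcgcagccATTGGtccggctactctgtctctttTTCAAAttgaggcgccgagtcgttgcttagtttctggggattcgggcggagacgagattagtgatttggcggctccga
KIFC1, chr6:33391573-33391872, plus strand: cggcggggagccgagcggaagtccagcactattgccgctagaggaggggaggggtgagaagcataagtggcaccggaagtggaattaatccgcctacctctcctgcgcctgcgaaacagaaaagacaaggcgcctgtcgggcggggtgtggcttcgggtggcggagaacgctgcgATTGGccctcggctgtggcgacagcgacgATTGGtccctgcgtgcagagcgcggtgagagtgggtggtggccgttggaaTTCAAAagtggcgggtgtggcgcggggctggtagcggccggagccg
KIF3C, chr2:25982448-25982747, minus strand: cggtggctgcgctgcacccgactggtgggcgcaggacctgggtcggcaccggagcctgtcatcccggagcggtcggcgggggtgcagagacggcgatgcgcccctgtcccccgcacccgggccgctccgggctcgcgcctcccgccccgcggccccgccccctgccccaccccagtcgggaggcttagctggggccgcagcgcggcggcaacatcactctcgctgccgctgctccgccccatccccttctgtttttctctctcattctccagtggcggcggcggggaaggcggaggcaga

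In KIF11 the CCAAT box lay at -53 to -49 and the CHR at -28 to -23 from the annotated start, with 20 bases between them. In KIFC1 and KIF18B the CHR lay just inside the transcript, at 5 to 10 and at 3 to 8. A CHR was found in 10 of 14 windows of mitotic kinesins (71.4%), in 1 of 14 windows of axonal transport kinesins (7.14%, KIF5B) and in 15.2% of all 35116 windows of the table. A CCAAT box was found in 11 mitotic windows (78.6%), in 5 axonal windows (35.7%) and in 34.6% of all windows. Both stood in the same window in 9 mitotic kinesins, 64.3% of their windows, in KIF5B alone of the axonal transport kinesins and in 5.90% of all windows. In each of those 9 the CCAAT box came first on the strand of the gene. Between 18 and 20 bases separated the nearest 2 motifs in KIF11, KIF14, KIF4A and its near-identical copy KIF4B. In KIF23, KIF18B, KIF18A, KIFC1 and KIF20B the gap was 4, 29, 30, 45 and 117 bases, so the 9 share no single spacing. In KIF5B the CHR came first, 75 bases away. KIF15 held the single E2F match, 7.14% of mitotic windows against 2.27% of all windows. These matches are letters in a window, not measured binding, and were searched after the expression results were known.

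**Figure D3:**
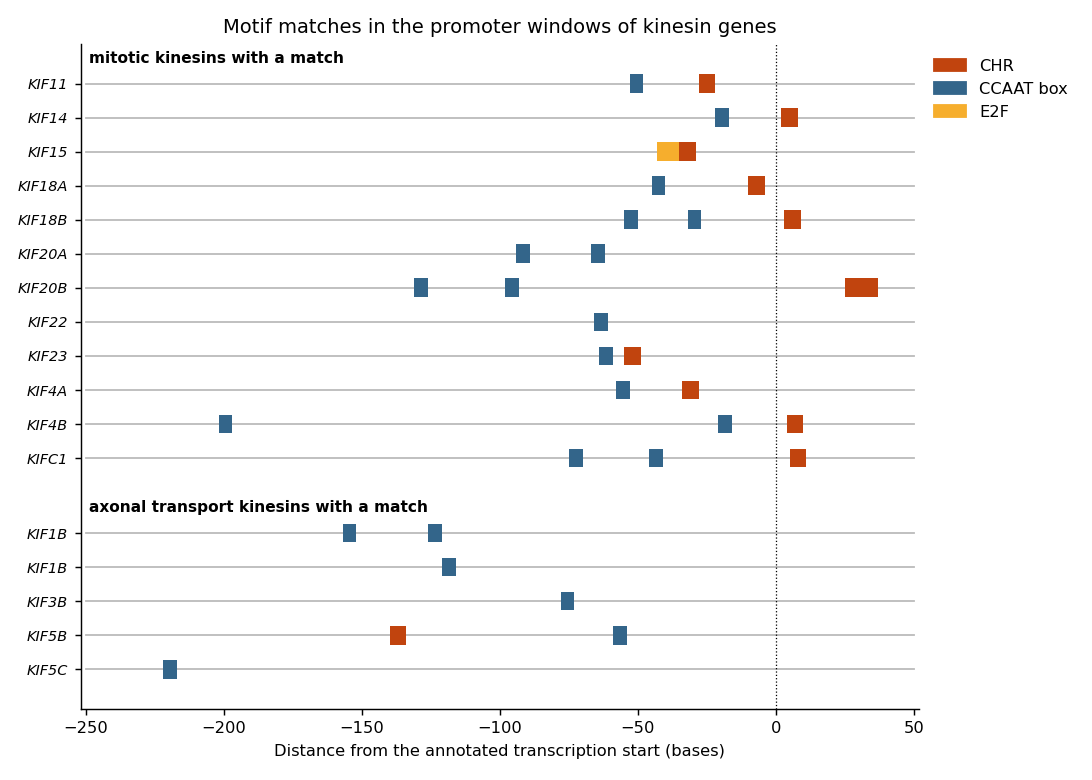
Positions of CHR, CCAAT box and E2F matches (coloured boxes, drawn to scale) in the promoter windows of kinesin genes, by distance in bases from the annotated transcription start; windows without a match are not drawn. In 9 mitotic kinesins a CCAAT box stands upstream of a CHR; KIF5B is the axonal transport kinesin with a CHR.

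With selinexor 2 of the 11 axonal transport kinesins were higher, 3 were lower and 6 were not called, with a median log2 fold change of 0.03. Those are 18.2% higher and 27.3% lower, near the 22.9% and 26.3% of all tested genes. Nothing is read from these counts about the group. In 3 of 11 every selinexor library was above every DMSO library and in 3 below, where 28.8% and 32.9% of all tested genes were. Leaving out selinexor replicate 1 gave 3 higher and 4 lower genes. With equal totals KIF3A joined the higher genes, and with RN7SL1 and RN7SL2 also left out of the totals 5 genes were higher, KIF3B and KIF5C being the others, and 2 lower, KIF21A losing its call.

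Kinesin-1, the main anterograde motor of the axon, has the heavy chain genes KIF5A, KIF5B and KIF5C. KIF5A, the neuronal heavy chain that carries neurofilaments and is mutated in hereditary spastic paraplegia (hg19, chr12:57943781-57980416, plus strand), had 2820.0, 1794 and 1893 counts with selinexor, against 720.4, 756 and 747 with DMSO. It rose by 1.52 on the log2 scale (0.161 SE, limma adjusted p 1.41e-04); replicate 1 is the highest and the groups do not overlap. The ubiquitous KIF5B had 8267, 10005 and 9664 counts with selinexor and 13775, 13942 and 14110.3 with DMSO, a log2 fold change of -0.59 (adjusted p 0.00104). KIF5C had 13149, 12754 and 12860.0 counts with selinexor and 12596, 12485 and 12767 with DMSO, a log2 fold change of 0.03 (95% interval -0.13 to 0.20, adjusted p 0.706). Within each library, KIF5A made up 8.0% to 12.8% of kinesin-1 heavy chain reads per kb of transcript with selinexor, and 2.89% to 3.02% with DMSO. KIF5B made up 37.1% to 44.2% with selinexor and 54.7% to 55.1% with DMSO, and KIF5C 47.8% to 50.1% with selinexor and 41.9% to 42.4% with DMSO.

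Kinesin-2 carries vesicles in axons and also works in cilia, as dimers of KIF3A with KIF3B or KIF3C; KIF3C is the neuronal partner. KIF3C had 3649, 2969.9 and 2884 counts with selinexor and 1785, 1852 and 1804 with DMSO, and rose by 0.80 (0.103 SE, adjusted p 4.04e-04). KIF3A had 1597, 2047 and 2009 counts with selinexor and 1513, 1537 and 1562 with DMSO; its groups do not overlap, but its log2 fold change of 0.28 missed the threshold (adjusted p 0.0568), and was 0.40 without selinexor replicate 1 (adjusted p 1.22e-05). KIF3B had 2543, 2633 and 2559 counts with selinexor and 2372, 2554 and 2442 with DMSO (log2 fold change 0.07, adjusted p 0.459). KIF3C made up 42.3% to 50.5% of kinesin-2 reads per kb with selinexor and 34.3% to 34.7% with DMSO. KIF17, a homodimeric kinesin-2 of dendrites and cilia, was near the low end at 74.4, 64.5 and 64.4 counts with selinexor and 71.3, 62.7 and 49.6 with DMSO (log2 fold change 0.16, adjusted p 0.506).

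Kinesin-3 motors of the KIF1 group carry synaptic vesicle precursors and mitochondria. KIF1A had 9877, 7097 and 7010.4 counts with selinexor and 9438, 9500.4 and 9850.4 with DMSO. Selinexor replicate 1 lies just above every DMSO library and the other selinexor libraries lie below them all. The log2 fold change of -0.28 was not called (limma adjusted p 0.108), whereas without replicate 1 it was -0.44 (adjusted p 2.04e-06). KIF1B had 3959, 3159 and 3536 counts with selinexor and 3554, 3503 and 3570.0 with DMSO, with a 95% interval of -0.22 to 0.22 around a log2 fold change of -0.00. KIF21A and KIF21B, which restrain microtubule growth, lie outside the KIF1 group but are counted in this list. Both were lower. KIF21A had 8803, 10514 and 9810.4 counts with selinexor and 11780.2, 12035 and 12338 with DMSO (log2 fold change -0.32, adjusted p 0.017). Its call was lost without DMSO replicate 1, 2 or 3, with adjusted p-values of 0.0544, 0.0687 and 0.082, and with equal totals without RN7SL1 and RN7SL2 (log2 fold change -0.16, adjusted p 0.0885). KIF21B had 93.6, 67.6 and 87.3 counts with selinexor and 245, 235 and 252 with DMSO, a log2 fold change of -1.56 (adjusted p 7.97e-05).

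**Figure D4:**
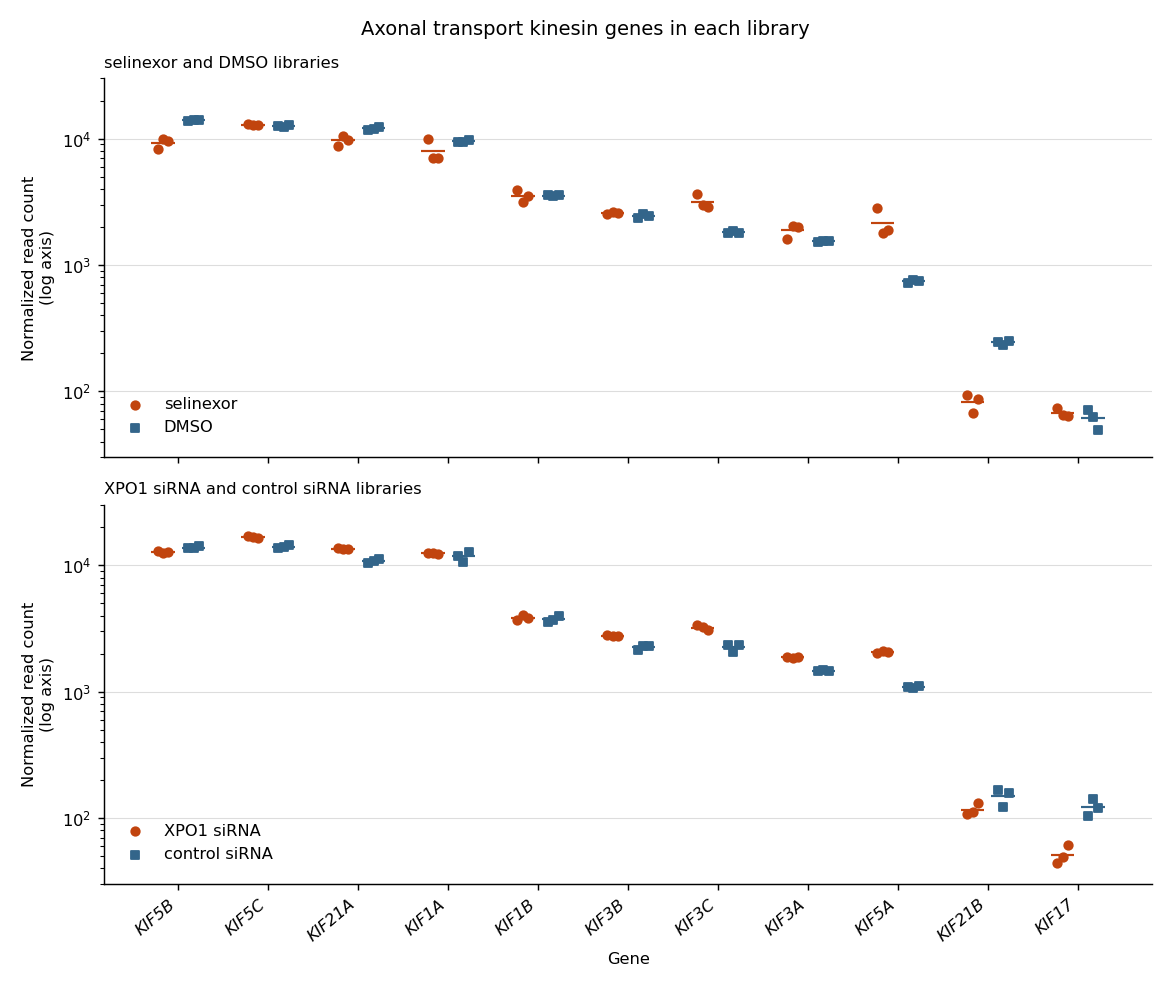
Normalized read counts (y axis, log scale) of the 11 axonal transport kinesin genes in each library, selinexor and DMSO above, XPO1 siRNA and control siRNA below; points are libraries and lines are means. KIF5A and KIF3C are higher in all 3 selinexor and all 3 XPO1 siRNA libraries than in their controls, KIF21B is lower in all selinexor libraries and KIF17 in all XPO1 siRNA libraries.

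With XPO1 siRNA 6 of the 11 axonal transport kinesins were higher, 2 lower and 3 not called, with a median log2 fold change of 0.27. Those are 54.5% higher and 18.2% lower, where 25.9% and 28.6% of all tested genes were. The 6 higher genes did not overlap between the groups, where 29.2% of all tested genes were higher without overlap. KIF5A had 2010.3, 2112 and 2054 counts with XPO1 siRNA and 1080.2, 1073 and 1119 with control siRNA, a rise of 0.92 on the log2 scale (0.0427 SE, limma adjusted p 1.18e-09). KIF5C had 17206, 16898 and 16616 counts with XPO1 siRNA and 13711, 13984 and 14506 with control siRNA (0.27 log2). KIF5B had 12976, 12549 and 12745 counts with XPO1 siRNA and 13645, 13786 and 14111 with control siRNA (-0.12 log2, adjusted p 0.00559). Its small fall lost its call with equal totals (-0.03, adjusted p 0.431). KIF5A made up 6.85% to 7.35% of kinesin-1 heavy chain reads per kb with XPO1 siRNA and 4.1% with control siRNA.

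All 3 kinesin-2 genes of the KIF3 group rose with XPO1 siRNA. KIF3C had 3346, 3229 and 3059.8 counts with XPO1 siRNA and 2344, 2048 and 2332 with control siRNA (0.52 log2). KIF3A had 1896, 1845 and 1875 counts with XPO1 siRNA and 1458, 1479.7 and 1463 with control siRNA (0.35 log2). KIF3B had 2812, 2769.9 and 2738 counts with XPO1 siRNA and 2129.8, 2318 and 2300.1 with control siRNA (0.30 log2). KIF17, the low kinesin-2 of dendrites and cilia that is counted in this list, went the other way and fell most of the 11. It had 44.3, 48.8 and 60.7 counts with XPO1 siRNA, against 103, 142 and 119 with control siRNA (-1.23 log2, limma adjusted p 3.44e-05). KIF21A rose to 13607, 13524 and 13411 counts with XPO1 siRNA, against 10368, 10748 and 11269 with control siRNA (0.32 log2). KIF21B had 108, 111 and 131 counts with XPO1 siRNA and 165, 122 and 157 with control siRNA, groups that overlap (-0.33 log2, adjusted p 0.0538). It passed the threshold without control siRNA replicate 2 (adjusted p 0.0105) or without XPO1 siRNA replicate 3 (0.0326). Of the KIF1 genes of axonal transport neither was called. KIF1A had 12615, 12424 and 12276 counts with XPO1 siRNA and 11909.7, 10719 and 12705 with control siRNA (0.08 log2, adjusted p 0.179; 0.0225 without control siRNA replicate 3). KIF1B had 3672, 4039 and 3816 counts with XPO1 siRNA and 3572, 3699 and 3955 with control siRNA (0.04 log2). With equal totals both were called higher, KIF1A by 0.17 (adjusted p 0.00808) and KIF1B by 0.13 (adjusted p 0.0304), and KIF1A also with RN7SL1 and RN7SL2 left out of the totals (0.16, adjusted p 0.0156).

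Set against each other, mitotic kinesins were lower relative to axonal transport kinesins in both experiments. The median log2 fold change of the mitotic kinesins minus that of the axonal transport kinesins was -1.83 with selinexor and -0.747 with XPO1 siRNA, a description without a test, since the lists were chosen with results known. The ratio of summed mitotic to summed axonal transport counts, which no scaling of a library can move, was 0.254, 0.297 and 0.286 in the selinexor libraries and 0.892, 0.941 and 0.902 in the DMSO libraries. It was 0.535, 0.542 and 0.538 in the XPO1 siRNA libraries and 0.847, 0.864 and 0.830 in the control siRNA libraries. Neither pair of groups overlaps. The sums are not per kb, so the genes with most counts weigh most, among the axonal ones KIF5B, KIF5C, KIF21A and KIF1A. The axonal transport sum averaged 53438 counts with selinexor and 58601 with DMSO, and 69542 with XPO1 siRNA and 61547 with control siRNA. For the mitotic sum these means were 14874 and 53422, and 37432 and 52105. The ratio of KIF11 to KIF1A was 0.134 to 0.240 with selinexor and 0.714 to 0.768 with DMSO, and 0.351 to 0.365 with XPO1 siRNA and 0.537 to 0.628 with control siRNA. KIF20A over KIF5C was 0.127 to 0.159 with selinexor and 0.490 to 0.526 with DMSO, and 0.285 to 0.290 with XPO1 siRNA and 0.467 to 0.485 with control siRNA.

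**Figure D5:**
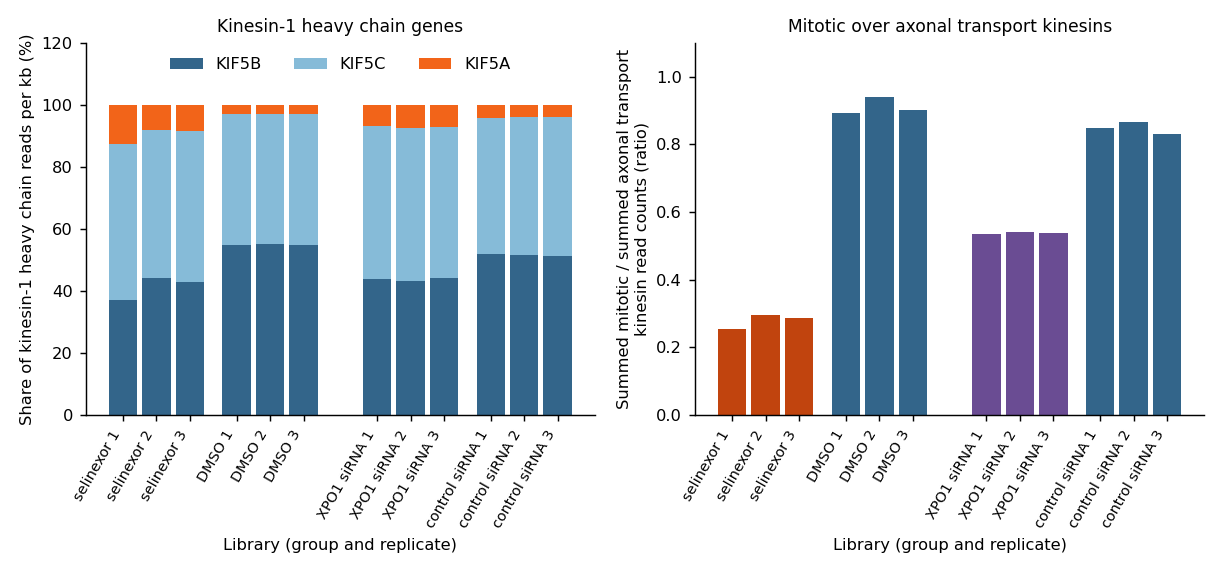
Left, share of kinesin-1 heavy chain reads per kb of transcript (y axis, %) from KIF5A, KIF5B and KIF5C in each of the 12 libraries; right, ratio of summed mitotic to summed axonal transport kinesin counts in the same libraries. The KIF5A share is 8.0% to 12.8% with selinexor against 2.89% to 3.02% with DMSO, and the ratio is under 0.3 in every selinexor library and over 0.8 in every DMSO and control siRNA library.

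The 2 effects themselves were compared in 1 limma fit over the 12 libraries. Of 39 kinesin genes 23 differed, 20 with a lower and 3 with a higher value of the selinexor effect minus the knockdown effect, where 31.8% of all 17332 genes tested differed, 20.2% lower and 11.6% higher. All 13 mitotic kinesins fell further with selinexor than with XPO1 siRNA, by a median of -1.39 on the log2 scale, and between -1.79 (0.108 SE, KIF18B, adjusted p 1.47e-07) and -1.09 (0.0944 SE, KIF4A, adjusted p 2.97e-06). The median over all genes was -0.07. Of the axonal transport kinesins 7 of 11 differed. KIF5A rose more with selinexor (difference 0.60, adjusted p 0.0208), and KIF5B and KIF21B fell more (-0.47 and -1.22). The difference of KIF5A was 0.40 to 0.72 when single libraries were left out. Its limma adjusted p stayed under 0.05 in all 21 alternative settings but reached 0.049. KIF21A was called in opposite directions in the 2 experiments, with a difference of -0.64 (adjusted p 2.07e-04). KIF17 fell with XPO1 siRNA and was not called with selinexor (difference 1.39, adjusted p 0.00117). KIF3C, higher in both, had a difference of 0.28 that missed the threshold (adjusted p 0.102). The experiments differ in agent, in hours of exposure and in delivery, and these cannot be told apart.

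Of the 16 other kinesins, KIF24, the centrosomal kinesin that holds back cilium formation, was lower in both comparisons. It had 125, 151 and 178 counts with selinexor and 559, 594 and 545 with DMSO (-1.91 log2, adjusted p 1.83e-05). With XPO1 siRNA KIF24 had 312, 315 and 322 counts, against 437, 413 and 462 with control siRNA (-0.47 log2). KIF1C, a ubiquitous kinesin-3 of integrin and vesicle transport, fell in both. It had 814, 696 and 662 counts with selinexor and 1619, 1573 and 1595 with DMSO (-1.14 log2, adjusted p 4.44e-05). With XPO1 siRNA KIF1C had 515, 539 and 523 counts, against 906, 772 and 957 with control siRNA (-0.73 log2). Its share of KIF1A, KIF1B and KIF1C reads per kb was 6.65% to 7.62% with selinexor and 12.6% to 13.1% with DMSO, and 3.66% to 3.80% with XPO1 siRNA and 6.06% to 6.57% with control siRNA. KIF13A, which brings recycling endosomes to the cell surface, was higher in both, by 0.38 with selinexor and 0.48 with XPO1 siRNA.

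KIFC2 and KIF12 were called with selinexor, and KIF19 and KIF7 with XPO1 siRNA. KIFC2 had 126, 91.2 and 70.5 counts with selinexor and 52.4, 45.1 and 53.3 with DMSO (0.88 log2, adjusted p 0.0115). Selinexor values of KIFC2 spread widely, with replicate 1 the highest; its selinexor effect minus its knockdown effect was 0.89 (adjusted p 0.0301). KIF12 was low at 34.8, 34.9 and 25.1 counts with selinexor and 11.2, 8.82 and 9.93 with DMSO (1.56 log2, adjusted p 0.00221); the difference of its 2 effects, 0.94, missed the threshold (adjusted p 0.0994). KIF19, a depolymerase of cilium tips, had 20.4, 13.8 and 11.9 counts with XPO1 siRNA and 45.3, 37.2 and 37.1 with control siRNA (-1.35 log2, adjusted p 7.4e-04). KIF7, the ciliary regulator of Hedgehog signalling, rose by 0.47 with XPO1 siRNA (adjusted p 5.64e-05); with selinexor it had 1691, 1048 and 1033 counts, replicate 1 being the highest, against 935, 981 and 984 with DMSO (adjusted p 0.147), and the 2 effects differed by -0.13 (adjusted p 0.663). KIF2A, a depolymerase of spindle poles and of axon branches, was lower by -0.29 with selinexor and -0.14 with XPO1 siRNA, calls that equal totals removed in both (adjusted p 0.0589 and 0.278). Leaving out DMSO replicate 1, 2 or 3 also removed the call of KIF2A with selinexor (adjusted p 0.0553, 0.0782 and 0.0681). KIF6, KIF9, KIF16B, KIF26A, KIF26B, KIF27, KIF13B and KIFC3 were called in neither, with log2 fold changes between -0.21 and 0.45 with selinexor and between -0.14 and 0.14 with XPO1 siRNA. Without selinexor replicate 1, KIF26A (-0.27, adjusted p 0.000397), KIF26B (-0.32, adjusted p 0.00557) and KIF13B (0.23, adjusted p 0.0294) passed the threshold with selinexor. KIF13B also passed without selinexor replicate 2 (0.56, adjusted p 0.0202) and KIFC3 without selinexor replicate 3 (0.60, adjusted p 0.0387), and both with equal totals without RN7SL1 and RN7SL2 (0.57 and 0.60, adjusted p 0.0301 and 0.0322). With XPO1 siRNA, KIF13B (-0.17, adjusted p 0.027) passed without control siRNA replicate 1 and KIF26A (-0.14, adjusted p 0.0205) without control siRNA replicate 3. KIF12, not called with XPO1 siRNA, passed there without control siRNA replicate 1 (0.87, adjusted p 0.0391).

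Genes of the proteins that mitotic kinesins work with were mostly lower. Of 27 spindle and cytokinesis partners 24 were lower and 1 higher with selinexor (median log2 fold change -1.56), or 88.9% lower and 3.70% higher, where 26.3% and 22.9% of all tested genes were. With XPO1 siRNA 23 were lower and 4 higher (median -0.41), or 85.2% and 14.8%, where 28.6% and 25.9% of all tested genes were. With selinexor the smallest p-values among the lower ones belonged to AURKB, the kinase of the chromosomal passenger complex that KIF20A carries (442 ± 17.0 counts with selinexor and 2207 ± 35.9 with DMSO; SD, n = 3 each), its partner BIRC5 (-1.73 log2), SPAG5 (-1.58 log2) and PRC1, the midzone bundler that binds KIF4A and KIF14 (-1.54 log2). With XPO1 siRNA they belonged to AURKB (1669 ± 43.5 counts with XPO1 siRNA and 3053 ± 64.5 with control siRNA), BIRC5 (-0.71 log2), CEP55 (-0.73 log2) and HMMR (-0.73 log2). NUMA1, a spindle pole protein that is nuclear in interphase, was higher in both, by 0.75 and 0.70. CENPE, the kinesin-7 that carries chromosomes to the spindle equator, had 2263 ± 282 counts with selinexor and 5975 ± 142 with DMSO (-1.41 log2, adjusted p 1.85e-05), but 3782 ± 37.3 counts with XPO1 siRNA and 3036 ± 461 with control siRNA (0.33 log2, adjusted p 0.00336). CLASP2 and CLASP1, which steady microtubule ends, were also higher with XPO1 siRNA (0.31 and 0.15 log2).

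Of 21 tested light chains and cargo adaptors of the transport kinesins, 8 were higher (38.1%) and 0 lower with selinexor, where 22.9% of all tested genes were higher and 26.3% lower. With XPO1 siRNA 11 were higher (52.4%) and 3 lower (14.3%), where 25.9% and 28.6% of all tested genes were. MAPK8IP3 (JIP3), an adaptor between kinesin-1 and axonal vesicles, had 2614 ± 384 counts with selinexor and 1249 ± 31.2 with DMSO (1.05 log2), and 2326 ± 103 with XPO1 siRNA and 1373 ± 59.9 with control siRNA (0.76 log2). The adaptor FEZ1 (1.04 log2) and the light chain KLC4 (0.72 log2) were also higher with selinexor. MADD, the adaptor of KIF1A and KIF1B (0.40 log2), SPAG9 or JIP4 (0.23 log2) and the low light chain KLC3 (1.90 log2) were higher beside MAPK8IP3 with XPO1 siRNA. RHOT1 (Miro1), which ties kinesin to mitochondria, and PLEKHM2 were lower with XPO1 siRNA (-0.43 and -0.17 log2). The list's medians were 0.12 with selinexor and 0.12 with XPO1 siRNA.

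Cytoplasmic dynein, which with dynactin drives transport in the opposite direction, had 4 higher and 6 lower genes of 26 with selinexor, and 9 higher and 6 lower with XPO1 siRNA, with medians of -0.10 and 0.04. Those are 15.4% higher and 23.1% lower with selinexor, near the 22.9% and 26.3% of all tested genes, and 34.6% higher and 23.1% lower with XPO1 siRNA, against 25.9% and 28.6% of all tested genes; nothing is read from these counts about the group. The adaptor BICD1 (1.07 log2), the neuronal intermediate chain DYNC1I1 (1.67 log2), HOOK2 (0.58 log2) and the heavy chain DYNC1H1 (0.40 log2) were higher with selinexor. NDE1 (-0.81 log2), DYNLL2 (-0.59 log2), ACTR1A (-0.34 log2) and PAFAH1B1 or LIS1 (-0.40 log2) were lower. With XPO1 siRNA the dynactin subunit DCTN1 (0.43 log2), DYNC1LI2 (0.32 log2), BICD2 (0.32 log2) and DYNLL2 (0.24 log2) were higher. NDE1 (-0.52 log2), ACTR1A (-0.33 log2), DCTN2 (-0.26 log2) and DCTN3 (-0.32 log2) were lower with XPO1 siRNA.

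Levels of different kinesins were compared per kb of the longest coding transcript of each gene, which need not be the one these cells express. The order and the family shares rest on this choice, which the SDs do not cover. In selinexor cells the first places were held by transport motors: KIF5C (1864 ± 29.5 counts per kb; SD, n = 3), KIF5B (1584 ± 157), KIF21A (1471 ± 130.3) and KIF1A (867 ± 177). KIF20A had rank 9 there, at 583 ± 56.0 counts per kb. In DMSO cells KIF5B came first with 2372 ± 28.6 counts per kb (SD, n = 3), followed by KIF20A (1992 ± 62.7), KIF22 (1925 ± 89.1), KIF21A (1826 ± 42.3) and KIF5C (1820.2 ± 20.5). KIF21A and KIF5C differed by less than their SDs, and KIF20A and KIF22 by more than the SD of KIF20A and less than that of KIF22. Mitotic motors thus stood among the most abundant kinesins in DMSO cells. KIF11 had rank 16 with 319 ± 41.1 counts per kb in selinexor cells and rank 7 with 1456 ± 40.7 in DMSO cells. The order changed less with siRNA: KIF5C, KIF5B and KIF21A came first with XPO1 siRNA, and KIF20A had rank 4 (1517 ± 25.5 counts per kb) there and rank 2 in control siRNA cells (2100.1 ± 29.2 counts per kb). Several members overlap genes on the opposite strand, among them KIF20A with BRD8 and CDC23, KIF24 with UBAP1, KIF7 with TICRR, KIF18A with METTL15 and KIF9 with KIF9-AS1 and KLHL18. Libraries were strand-specific, but the use of strand in counting is not given in the sources used here, so reads of such pairs may be mixed. Other members overlap genes on the same strand, where strand cannot separate reads. Among them are KIF2A with IPO11 (means of 2749.5 and 1816.1 counts over the selinexor and DMSO libraries) and KIF15 with TMEM42 (2302 and 226 counts).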

How the data were processed

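Total RNA of IMR5 cells was made into stranded libraries, 3 per group, per the labels' protocols. The submitters' processing notes name STAR 2.7.3a, Partek, DESeq2 and hg19; which annotation and counting options were chosen is not given in the sources used here. Each deposited table (20029 rows for selinexor, 19610 for knockdown) holds a signal: counts per gene that the authors divided by a library's size factor. In a library, 62.0% to 66.8% of the values between 0.3 and 60 were whole multiples (within 0.02) of a single step, too few to recover reads, so a count test was not used; the step gave the estimated depth. In the knockdown table, 3 columns of per-sample values match no sample analysed here and were left out, and 25 symbols stored as dates were restored by coordinates.

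The test was limma 3.58.1 (R 4.3.3; eBayes, intensity trend), two-sided, on log2(value + 1) of genes whose mean over a table's 6 libraries was 10 or more, with Benjamini-Hochberg adjustment across all of them. All 39 and 40 kinesin genes passed this filter. For the difference of effects, 4 group means were fitted over 12 libraries. The steps were tested on simulated data. Members, roles and gene lists were chosen with earlier results of these data known. By rule, every mitotic and axonal transport kinesin is given, as are other members called with an absolute log2 fold change of at least 0.5, XPO1, and per partner list up to 4 called genes per direction with the smallest p (2 such genes are not reported here); the remaining kinesins, and values without 1 library, were chosen after seeing them. Transcript lengths, for 40 of 40 kinesin genes, are those of the longest protein-coding transcript in GENCODE 29, which gave no coordinates. The alternatives changed the pseudocount (0.5, 5), the filter (none, mean of 50), the scaling (equal totals, 30% trimmed mean), the variance model (no trend) and the threshold (log2 fold change of 1), dropped single libraries, or blocked on replicate number; equal totals without RN7SL1 and RN7SL2 were added after seeing the data. Other software was Python 3.11.15 with numpy 2.4.6, pandas 2.3.3 and, for figures, matplotlib 3.10.9.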

Additional observations from a re-analysis of the deposited data

Results flagged for a closer look

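For 23 of 39 kinesin genes the selinexor effect and the knockdown effect differed in the limma test of the difference itself (adjusted p under 0.05 over 17332 genes). Values are the selinexor effect minus the knockdown effect on the log2 scale, and no explanation was weighed. Among the mitotic kinesins, whose fall was larger with selinexor in all 13, the pole-setting motors KIF11, KIF15 and KIFC1 had differences of -1.61, -1.66 and -1.46. The motors of chromosomes and microtubule ends, KIF18B, KIF18A, KIF2C, KIF22, KIF4A and KIF4B, had differences of -1.79, -1.40, -1.17, -1.11, -1.09 and -1.11. The midzone motors KIF14, KIF23, KIF20A and KIF20B had differences of -1.42, -1.39, -1.31 and -1.26.

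Among the axonal transport kinesins, KIF17 (1.39) and KIF5A (0.60) had higher values of the selinexor effect, and KIF21B (-1.22), KIF21A (-0.64), KIF5B (-0.47), KIF3B (-0.23) and KIF5C (-0.23) lower ones. KIF24 (-1.44) and KIF1C (-0.41) fell further with selinexor, and KIFC2 (0.89) was higher with it. The differences of KIF3B, KIF5C, KIF1C and KIFC2 are the least secure: each lost its call when some single libraries were left out, with adjusted p-values up to 0.105, 0.0607, 0.0659 and 0.081. KIF1A, not called here (difference -0.36, adjusted p 0.0865), reached -0.53 without selinexor replicate 1 (adjusted p 1.14e-05).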

How the results depend on the processing

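Under every setting but a minimum fold change, 13 mitotic kinesins were lower with selinexor, 12 with XPO1 siRNA, 0 were higher in either, and 13 differed between the effects, the runs without a library included. A minimum absolute log2 fold change of 1 left 0 mitotic kinesins lower with XPO1 siRNA, 1 axonal transport kinesin lower and 1 higher with selinexor, 1 lower and 0 higher with XPO1 siRNA, and 2 differing between the effects; fewer genes can pass it by construction. Equal totals, with or without RN7SL1 and RN7SL2, left 1 axonal transport kinesin lower with XPO1 siRNA and gave 8 and 7 higher ones there; without them 5 were higher and 2 lower with selinexor, and 5 differed between the effects. Leaving out single libraries gave 2 to 4 lower and 2 to 3 higher axonal transport kinesins with selinexor, 2 to 3 lower and 6 to 7 higher with XPO1 siRNA, and 5 to 8 differing. The mitotic minus axonal median was -1.91 to -1.72 with selinexor and -0.753 to -0.727 with XPO1 siRNA in those runs.

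Replicate numbers showed no clear pairing of libraries. Same-numbered libraries correlated in their deviations from the group means at 0.00884, 0.119 and -0.0417 in the selinexor table. In the knockdown table these values were -0.0311, -0.02 and -0.104. Libraries of unlike number correlated at -0.0929 to 0.0914 in the selinexor table and -0.0500 to 0.0894 in the knockdown table. With 3 libraries per group these values cannot exclude that libraries were handled in pairs. With the replicate block, 3 axonal transport kinesins were lower and 2 higher with selinexor, 3 lower and 6 higher with XPO1 siRNA, and 5 differed between the effects, while mitotic counts stayed at 13, 12 and 13; KIF13B was called with selinexor (adjusted p 0.0374).

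Signs turned in genes that were not called on the authors' values, and no value of the turned sign was called; KIF26A was called at the negative end of its range with selinexor. With selinexor, equal totals gave KIF1B 0.0755, KIF26A 0.00587 and KIF27 0.0163; without RN7SL1 and RN7SL2 they were 0.152, 0.0819 and 0.0922, and KIF6 0.051; trimmed mean scaling gave KIF1B 0.0123. With XPO1 siRNA, equal totals gave KIF16B 0.0573, KIF27 0.0506 and KIFC2 0.0816, and without RN7SL1 and RN7SL2 0.0406, 0.034 and 0.0651. Leaving out single libraries turned the sign of KIF16B (-0.048 to 0.051), KIF6 (-0.28 to 0.15), KIF1B (-0.084 to 0.079) and KIF26A (-0.27 to 0.055) with selinexor, and of KIF16B (-0.062 to 0.013), KIF26B (-0.043 to 0.046), KIF6 (-0.17 to 0.23) and KIFC2 (-0.093 to 0.13) with XPO1 siRNA. The cause was not tested. KIF6, KIF12 and KIF19 rest on under 50 counts per library.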
